A study of Mus musculus with 10 samples.

Results

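A group of 8 mouse genes without an established place in primordial germ cell (PGC) biology was followed across embryonic stem cells (ESCs), PGC-like cells made from them *in vitro* (iPGCs) and somatic cells of the same cultures: *4933402E13Rik*, *Cyp1b1*, *Rnf182*, *Dmrt3*, *Rimbp2*, *Slc16a9*, *Gpat3* and *Asb4*. They were chosen from earlier results on these arrays for how far iPGCs lay above ESCs, so the difference between iPGCs and ESCs is given for them as a description, with no test. The arrays carry 17 probe sets for the 8 genes of 45101 in all, and 14 of the 17, at least 1 per gene, were bright enough to be tested. In the ranking of 12207 tested genes by the log2 difference between iPGCs and ESCs, *Asb4* (4.26), *4933402E13Rik* (4.25), *Rnf182* (4.24) and *Rimbp2* (4.22) held ranks 1 to 4. *Gpat3* (4.14) held rank 6, *Slc16a9* (3.62) rank 8 and *Cyp1b1* (3.62) rank 9. *Dmrt3* lay at rank 133 with a difference of 2.03, so it was not among the largest differences. These ranks depend on the offset added to the signals before taking logs, since both ESC arrays lay within background for *Asb4* and *Rimbp2*. For *Gpat3*, ESC replicate 2 did. With a floor at the offset in its place the difference was 4.71 for *Rimbp2*, 4.59 for *4933402E13Rik*, 4.47 for *Asb4* and 4.43 for *Rnf182*. With the offset doubled it was 3.98 for *4933402E13Rik*, 3.54 for *Rimbp2*, 3.52 for *Gpat3* and 3.45 for *Asb4*. Without ESC replicate 1 it was 4.73 for *Gpat3*. The ranks also depend on the probe set that stands for a gene. With the mean of a gene's tested probe sets the difference was 3.33 for *Asb4*, 3.24 for *Cyp1b1* and 3.14 for *Rnf182*. For *Slc16a9* it was then 2.51 and for *Dmrt3* 1.64. The second probe set of *Asb4* alone gave 2.40. The order among these genes is therefore not settled. *Slc40a1* (4.17, rank 5), *Msx2* (3.96, rank 7) and *Amot* (3.55, rank 10) are the other genes of the top 10 and were not followed here.

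RNA was hybridised to 10 Affymetrix arrays, 2 for each of 5 populations sorted by flow cytometry. The Oct4-Gfp iPGCs were Gfp+ and cKit bright cells of day 6 embryoid bodies (EBs), from a line of mixed background in which Gfp reports transcription of *Pou5f1*. The V6.5 iPGCs were SSEA1+ and cKit bright day 6 cells of the V6.5 line, which has a 129xBL6 F1 background. The somatic cells were Gfp-/cKit- in the Oct4-Gfp line and SSEA1-/cKit- in the V6.5 line, from day 6 EBs as well. The ESCs were SSEA1+/cKit+ V6.5 cells that had not been differentiated and were grown on fibroblast feeders, whereas EBs were formed after depletion of feeders and cultured without LIF. ESCs of the Oct4-Gfp line were not analysed, so for its cells the step from ESC to day 6 and the change of line cannot be told apart. The sort marker also differs between the lines. The study's sources used here do not say that the 2 arrays of a population came from separate cultures, so p-values measure only the spread between these samples.

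PGCs are the embryonic precursors of eggs and sperm. In the mouse they are set aside from the posterior epiblast in response to BMP signals, switch off the mesodermal program that their neighbours follow, and keep or regain genes of pluripotency. A gene that is higher in iPGCs than in ESCs can therefore belong to the germ cells or be shared with other day 6 cells. The somatic cells sorted from day 6 EBs show sharing only with cells that lack cKit and SSEA1 or Gfp. Day 6 cells that were SSEA1+ with less cKit, which the paper also sorted, were not on the arrays. A difference called restricted to iPGCs below may therefore be shared with them.

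Values are signal intensities on a linear scale, and the trimmed mean of every array is 500. The signal that 95% of olfactory receptor probe sets did not exceed was taken as background and lay between 12.6 and 25.4 per array. Differences are in log2(signal + 14.8) with their standard error (SE). RNA quality was read from *Gapdh* control probe sets, whose 3′ over 5′ signal lay between 1.51 and 2.37 on iPGC arrays, between 1.65 and 2.05 on somatic arrays and between 1.28 and 1.30 on ESC arrays. The part of RNA quality in the differences was not tested. The summed signal of 10 germ cell markers lay between 23769 and 25749 on iPGC arrays, between 2284 and 3264 on somatic arrays and between 11165 and 11845 on ESC arrays. For 7 pluripotency markers the sums were 32026 to 35494, 510.3 to 3693 and 40523 to 40824 in the same order. The germ cell list was drawn up with *Kit* and the pluripotency list with *Pou5f1*, both with earlier results known. Staining for cKit and Gfp driven by *Pou5f1* were used in the sorts, so agreement of these sums with the labels was partly set in advance. The somatic Oct4-Gfp array of replicate 2 held the highest pluripotency sum among somatic arrays.

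All 4 iPGC arrays lay above both ESC arrays for each of the 8 genes, which the choice of genes made likely. This held for 27.9% of the 26368 probe sets tested. A difference was called restricted to iPGCs in a line if the somatic arrays of that line did not both exceed both ESC arrays, and shared with somatic cells if they did. In the Oct4-Gfp line 5 of the 8 genes were shared (*Dmrt3*, *Rimbp2*, *Slc16a9*, *Gpat3* and *Asb4*), beside 43.9% of all probe sets tested that met this condition. In the V6.5 line 5 were shared as well (*Rnf182*, *Rimbp2*, *Slc16a9*, *Gpat3* and *Asb4*), beside 43.1%. With the lines together, all 4 somatic arrays exceeded both ESC arrays for 4 genes, beside 38.2%. The iPGC arrays lay above the somatic arrays of their own line for 7 of 8 genes in the Oct4-Gfp line, beside 32.8%, and for 6 of 8 in the V6.5 line, beside 38%. All 4 iPGC arrays lay above all 4 somatic arrays for 6 genes, beside 23%. The counts of shared genes use the ESC arrays, which took part in the choice of the genes. The last counts use the iPGC arrays on which the genes were chosen for being high. Nothing is read from any of these counts against the shares of all probe sets.

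**Figure D1:**
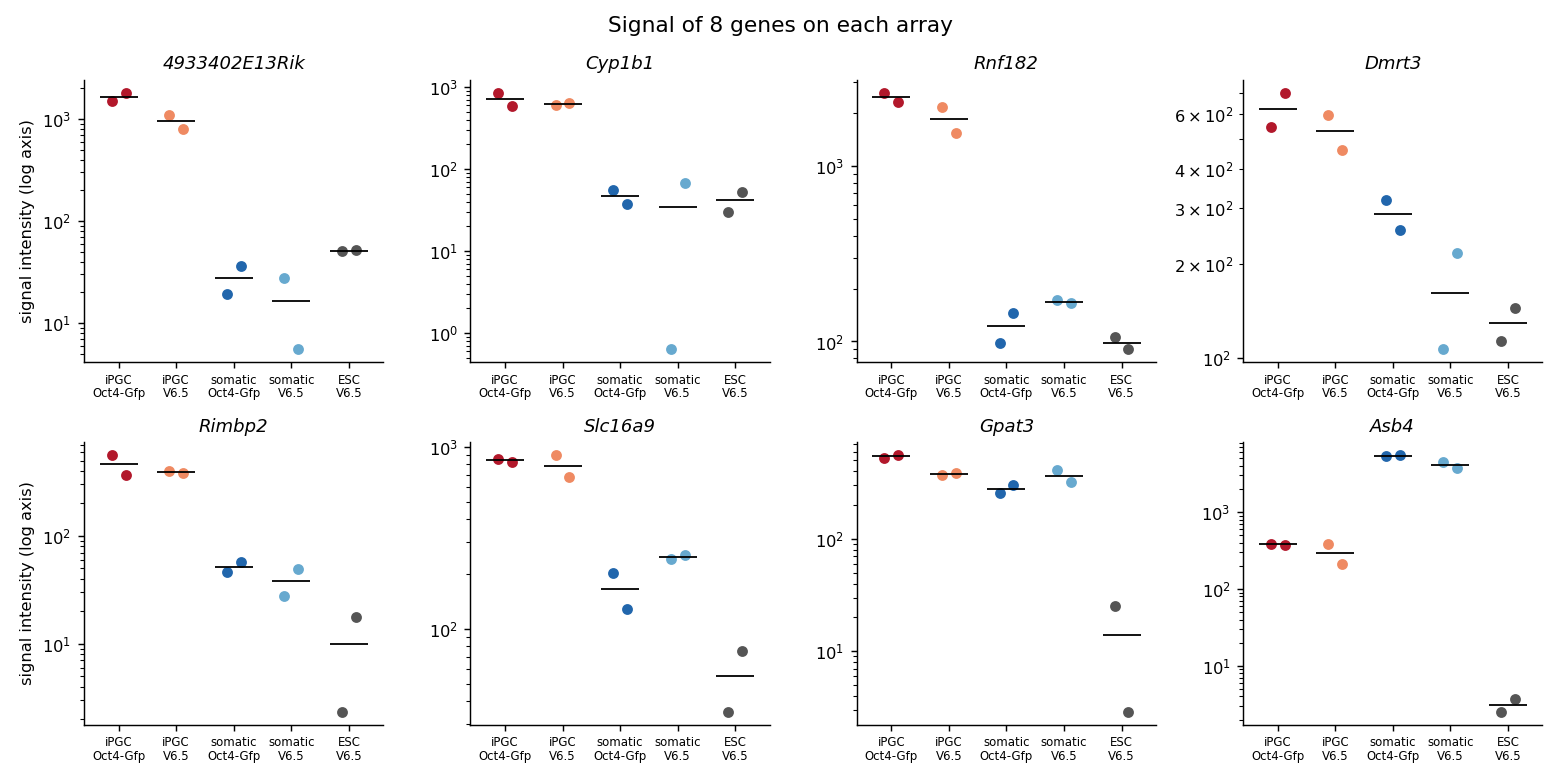
Signal intensity on a log axis for the main probe set of each of the 8 genes on the 10 arrays. Each point is an array and each bar a group mean (n = 2), with iPGCs in red, somatic cells in blue and ESCs in grey. The iPGC arrays of *4933402E13Rik*, *Cyp1b1*, *Rnf182* and *Rimbp2* stand far above all their other arrays, and *Asb4* stands highest on somatic arrays.

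*4933402E13Rik* is a protein-coding gene of the X chromosome that is named only by its clone (GRCm38.p6 chrX:62282960-62292084), and of the 8 it had the largest log2 difference between iPGCs and somatic cells. It had signals of 1493 and 1819.8 on the Oct4-Gfp iPGC arrays, 1091 and 807 on the V6.5 iPGC arrays, 19.3 and 36.5 on the Oct4-Gfp somatic arrays, 27.6 and 5.58 on the V6.5 somatic arrays, and 50.8 and 52.2 on the ESC arrays. Every somatic array lay below both ESC arrays, and every iPGC array lay far above both. The mean was 1303 ± 445 (SD, n = 4) in iPGCs, 22.2 ± 13.1 (SD, n = 4) in somatic cells and 51.5 ± 1.03 (SD, n = 2) in ESCs. The log2 difference was 5.17 (SE 0.25) between iPGCs and somatic cells, 4.25 (SE 0.30) between iPGCs and ESCs, and -0.92 (SE 0.30) between somatic cells and ESCs. Of the somatic arrays, 2 of 4 exceeded their background, 1 in each line.

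*Cyp1b1* encodes a cytochrome P450 that oxidises steroids, retinoids and foreign aromatic compounds (GRCm38.p6 chr17:79706940-79715061, minus strand). It had signals of 854 and 588 on the Oct4-Gfp iPGC arrays, 609 and 635 on the V6.5 iPGC arrays, 55.7 and 37.1 on the Oct4-Gfp somatic arrays, 0.637 and 67.4 on the V6.5 somatic arrays, and 30.2 and 53.0 on the ESC arrays. The somatic and ESC arrays overlapped, and the iPGC arrays lay above all of them. The mean was 671 ± 123 (SD, n = 4) in iPGCs, 40.2 ± 29.2 (SD, n = 4) in somatic cells and 41.6 ± 16.1 (SD, n = 2) in ESCs. The log2 difference was 3.87 (SE 0.47) between iPGCs and somatic cells and 3.62 (SE 0.57) between iPGCs and ESCs. Somatic cells differed from ESCs by -0.25 (SE 0.57), a value that became 0.35 without somatic V6.5 replicate 1, the array with a signal of 0.637. A second probe set read 151 and 103, then 123 and 164 on the iPGC arrays of the Oct4-Gfp and V6.5 lines. There the somatic and ESC arrays all lay within background, so iPGCs were at least 6.53-fold above somatic cells and at least 8.73-fold above ESCs. Such a bound sets the mean of the bright arrays against each dim array's background, or its own signal where that is higher. The last *Cyp1b1* probe set was too dim to be tested, read between 2.17 and 26.7 on all arrays and did not separate iPGCs from somatic cells.

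*Rnf182*, which encodes a RING finger ubiquitin ligase held in membranes (GRCm38.p6 chr13:43615733-43670946), was close to restricted. Its signals were 2617 and 2316 on the Oct4-Gfp iPGC arrays, 2170.4 and 1537 on the V6.5 iPGC arrays, 97.4 and 146 on the Oct4-Gfp somatic arrays, 172 and 166 on the V6.5 somatic arrays, and 107 and 90.5 on the ESC arrays. Both V6.5 somatic arrays lay above the ESC arrays, and the Oct4-Gfp somatic arrays overlapped them. The log2 difference between iPGCs and somatic cells was 4.20 (SE 0.22) in the Oct4-Gfp line and 3.33 (SE 0.22) in the V6.5 line. Somatic cells of both lines differed from ESCs by 0.47 (SE 0.19). The somatic mean stood at 5.61% and 17.4% of the way from the ESC mean to the iPGC mean on the log2 scale, in the Oct4-Gfp and V6.5 lines. A second probe set read between 111 and 186 on iPGC arrays, between 14.1 and 35.5 on somatic arrays, and 35.5 and 13.6 on ESC arrays, and there the somatic arrays of neither line both exceeded the ESC arrays.

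*Dmrt3* encodes a transcription factor with the DM domain that it shares with doublesex of the fly, and is known in the mouse for its role in spinal interneurons (GRCm38.p6 chr19:25610246-25623921). It was the only 1 of the 8 whose somatic arrays reached above ESCs in the Oct4-Gfp line and overlapped them in the V6.5 line. Its signals were 545 and 703 on the Oct4-Gfp iPGC arrays, 596 and 461 on the V6.5 iPGC arrays, 319.5 and 255 on the Oct4-Gfp somatic arrays, 107 and 216 on the V6.5 somatic arrays, and 113 and 144 on the ESC arrays. All iPGC arrays stood above all others. The log2 difference between iPGCs and somatic cells was 1.08 (SE 0.31) in the Oct4-Gfp line and 1.69 (SE 0.31) in the V6.5 line. The somatic mean stood at 49.9% of the way from ESCs to iPGCs in the Oct4-Gfp line and at 11.9% in the V6.5 line. The paper names *Dmrt3* as an example of a cluster of genes enriched in iPGCs and in neither ESCs nor somatic cells. That cluster rests on another processing of the arrays, D-Chip, whose values were not used here. The 4 probe sets of *Dmrt3* disagreed. A second, tested one read between 93.5 and 129.8 on iPGC arrays, between 41.0 and 71.1 on somatic arrays and 24.4 and 52.3 on ESC arrays, and divided the lines as the main one did. The next, not tested, read between 28.2 and 37.9 on iPGC arrays and higher, at 55.2 and 53.5, on the Oct4-Gfp somatic arrays. The last exceeded background on 1 array of 10.

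*Rimbp2* encodes a scaffold protein that ties RIM proteins to voltage-gated calcium channels at the presynaptic active zone, where synaptic vesicles fuse (GRCm38.p6 chr5:128757788-128953644, minus strand). It had signals of 559.5 and 368 on the Oct4-Gfp iPGC arrays, 398 and 386 on the V6.5 iPGC arrays, 46.3 and 57.6 on the Oct4-Gfp somatic arrays, 27.4 and 49.5 on the V6.5 somatic arrays, and 2.33 and 17.5 on the ESC arrays. The 3 cell types did not overlap, and both ESC arrays lay within background. iPGCs were at least 27.7-fold and somatic cells at least 2.87-fold above ESCs. The log2 difference between iPGCs and somatic cells was 2.89 (SE 0.24). The condition of a shared difference was thus met at a somatic level of 45.2 ± 12.8 (SD, n = 4), against 428 ± 88.7 (SD, n = 4) in iPGCs.

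*Slc16a9*, a member of the monocarboxylate transporter family (GRCm38.p6 chr10:70245276-70285951), stood between ESCs and iPGCs in somatic cells of both lines. Its signals were 860.1 and 828 on the Oct4-Gfp iPGC arrays, 898 and 678 on the V6.5 iPGC arrays, 204 and 129 on the Oct4-Gfp somatic arrays, 241 and 256 on the V6.5 somatic arrays, and 35.05 and 75.3 on the ESC arrays. No arrays of different cell types overlapped. The log2 difference was 1.94 (SE 0.22) between iPGCs and somatic cells and 1.69 (SE 0.26) between somatic cells and ESCs. The somatic mean stood at 38.1% of the way from ESCs to iPGCs in the Oct4-Gfp line and at 55.2% in the V6.5 line. On both of its other probe sets the V6.5 somatic arrays exceeded the ESC arrays and the Oct4-Gfp somatic arrays overlapped them, so the call of a shared difference in the Oct4-Gfp line rests on the main probe set.

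*Gpat3* encodes an acyltransferase that adds the first fatty acid to glycerol-3-phosphate in the synthesis of triacylglycerol and phospholipids (GRCm38.p6 chr5:100845665-100899102). It was about as high in somatic cells as in iPGCs. Its signals were 530.3 and 556 on the Oct4-Gfp iPGC arrays, 372 and 389 on the V6.5 iPGC arrays, 258 and 299.7 on the Oct4-Gfp somatic arrays, 409 and 319.9 on the V6.5 somatic arrays, and 25.2 and 2.89 on the ESC arrays. In the V6.5 line iPGC and somatic arrays overlapped, with a log2 difference of 0.07 (SE 0.33). In the Oct4-Gfp line the iPGC arrays lay above, by 0.93 (SE 0.33). Somatic cells exceeded ESCs by 3.64 (SE 0.29), and the somatic mean stood at 78.8% of the way from ESCs to iPGCs in the Oct4-Gfp line and at 98.2% in the V6.5 line.

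*Asb4*, which encodes an ankyrin repeat protein with a SOCS box, a domain that links substrates to cullin ubiquitin ligases, was higher in iPGCs than in ESCs on every array and yet far higher in somatic cells (GRCm38.p6 chr6:5383386-5433022). Its signals were 381 and 378 on the Oct4-Gfp iPGC arrays, 382 and 209 on the V6.5 iPGC arrays, 5402 and 5499.8 on the Oct4-Gfp somatic arrays, 4508 and 3798 on the V6.5 somatic arrays, and 2.53 and 3.70 on the ESC arrays. All ESC arrays lay within background, and no arrays of different cell types overlapped. iPGCs were at least 21.5-fold and somatic cells at least 312-fold above ESCs. The log2 difference between iPGCs and somatic cells was -3.80 (SE 0.17). A second probe set gave -4.09 (SE 0.17). In the ranking by somatic cells over ESCs, *Asb4* held rank 2 of 12207 genes. Markers of somatic mesoderm moved with it. The summed signal of 9 such markers lay between 1718 and 2756 on iPGC arrays, between 25806 and 29159 on somatic arrays and between 175 and 275 on ESC arrays. Of the 8 tested genes of this list, limma called 6 higher and 0 lower in the comparison of iPGCs with ESCs, beside 21.2% of all probe sets called higher and 20.7% called lower. The list holds *Msx2*, *Tbx20*, *Msx1* and *Foxf1*, at ranks 7, 18, 22 and 59 of that comparison. It was chosen with such results known, so the count is a description and no independent support. The mesodermal regulator *Hand1* had a mean of 189 ± 124 (SD, n = 4) in iPGCs, 4909 ± 886 (SD, n = 4) in somatic cells and 29.8 ± 18.3 (SD, n = 2) in ESCs. *Meox1* of the same list lay within background on every iPGC array. Among 12 blood and endothelial markers, whose sum was 735 to 1039 on iPGC arrays, 4671 to 14371 on somatic arrays and 769 to 864 on ESC arrays, 9 were tested, and limma called 2 higher (*Kdr* and *Esam*) and 0 lower in iPGCs than in ESCs. The embryonic globin gene *Hbb-bh1* of that list lay within background on every iPGC array, with a mean of 6.64 ± 4.68 (SD, n = 4) against 5235 ± 3889 (SD, n = 4) in somatic cells. The sum of 12 fibroblast markers was 615 to 1115 on iPGC arrays, 12638 to 18782 on somatic arrays and 1339 to 1603 on ESC arrays. The part of somatic cells within the iPGC sort in the level of *Asb4* was not tested, and in bulk RNA fewer cells that carry a transcript and less of it per cell cannot be told apart.

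**Figure D2:**
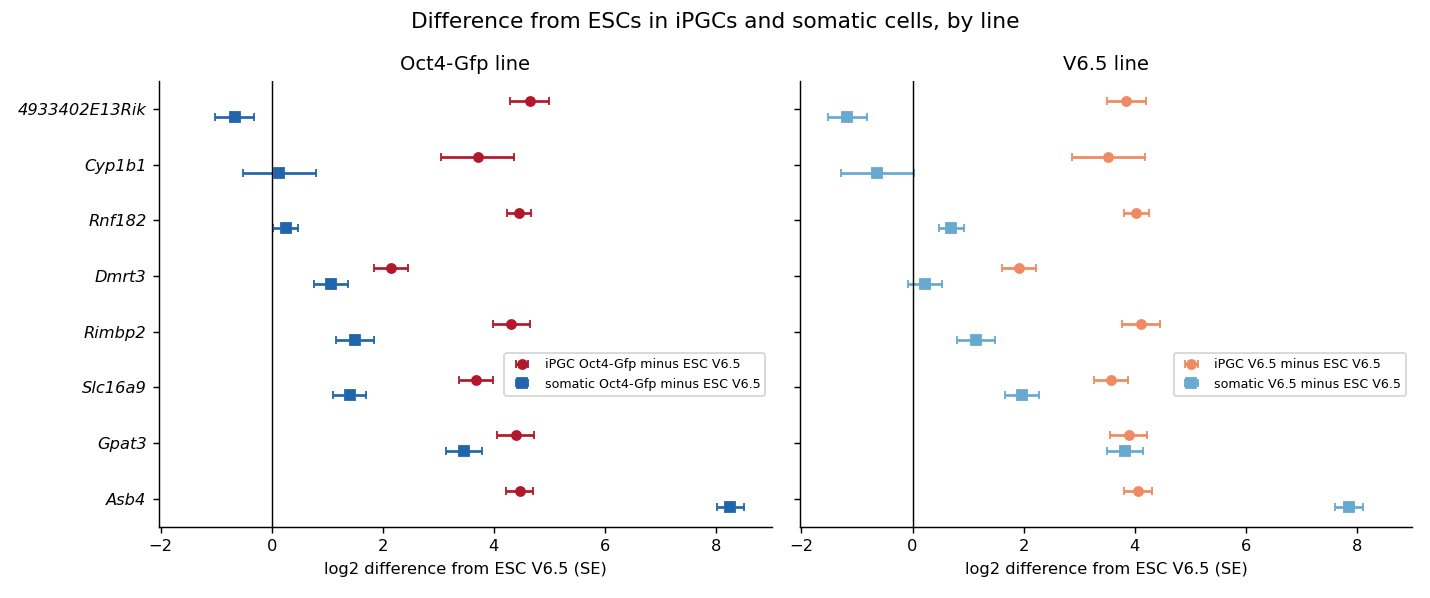
Log2 difference from V6.5 ESCs (with SE) in iPGCs (circles) and in somatic cells (squares) for the 8 genes, with the Oct4-Gfp line on the left and the V6.5 line on the right. The genes run from *4933402E13Rik*, whose somatic cells lie below ESCs, to *Asb4*, whose somatic cells lie above iPGCs.

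On leaving out 1 array the class of *Rnf182*, *Dmrt3* and *Cyp1b1* changed, and for *Gpat3* the overlap of iPGC and somatic arrays did, while its class stayed shared. Without somatic V6.5 replicate 1, *Dmrt3* and *Cyp1b1* counted as shared in the V6.5 line and the iPGC arrays of *Gpat3* lay above its remaining somatic array. In the Oct4-Gfp line *Rnf182* counted as shared without ESC replicate 1 or somatic Oct4-Gfp replicate 1, and *Cyp1b1* without ESC replicate 2 or somatic Oct4-Gfp replicate 2. The somatic levels of *Cyp1b1* that this turns on are all below 68, against 588 or more on iPGC arrays. Leaving out an array can only turn a restricted difference into a shared one. *Rimbp2*, *Slc16a9* and *Asb4* were already shared in both lines, so their classes could not change and their stability shows nothing. *4933402E13Rik* stayed restricted in both lines.

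Whether the lines differed was tested, since these contrasts are independent of the difference between iPGCs and ESCs that chose the genes. Of the 8 genes, 0 differed between Oct4-Gfp and V6.5 iPGCs, where limma called 0% of all probe sets (0 of 26368, with 5526 at an unadjusted p under 0.05). The adjusted p of the 8 lay between 0.240 and 0.890. The widest gap was in *4933402E13Rik*, 0.80 higher in Oct4-Gfp iPGCs (SE 0.35, 95% interval -0.0043 to 1.61, adjusted p = 0.240 from limma). Between Oct4-Gfp and V6.5 somatic cells 0 of the 8 passed, beside 0.0834% of all probe sets. *Dmrt3* was 0.84 higher in Oct4-Gfp somatic cells (SE 0.31, adjusted p = 0.341, unadjusted p = 0.0257 from limma) and passed no threshold after adjustment. In the difference between lines of the contrast of iPGCs with somatic cells 0 of the 8 passed, beside 0.0152% of all probe sets. The values were 0.88 (SE 0.32, 95% interval 0.15 to 1.61, adjusted p = 0.432) for *Rnf182*, 0.86 (SE 0.47, adjusted p = 0.538) for *Gpat3*, 0.68 (SE 0.43, adjusted p = 0.579) for *Slc16a9* and -0.61 (SE 0.44, adjusted p = 0.622) for *Dmrt3* by limma. The 95% intervals were wide, from -0.23 to 1.95 for *Gpat3* and from -2.73 to 1.57 for *Cyp1b1*, and do not show that the lines act alike. The different classes of *Rnf182* and *Dmrt3* in the 2 lines are therefore not shown to be a difference between lines.

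**Figure D3:**
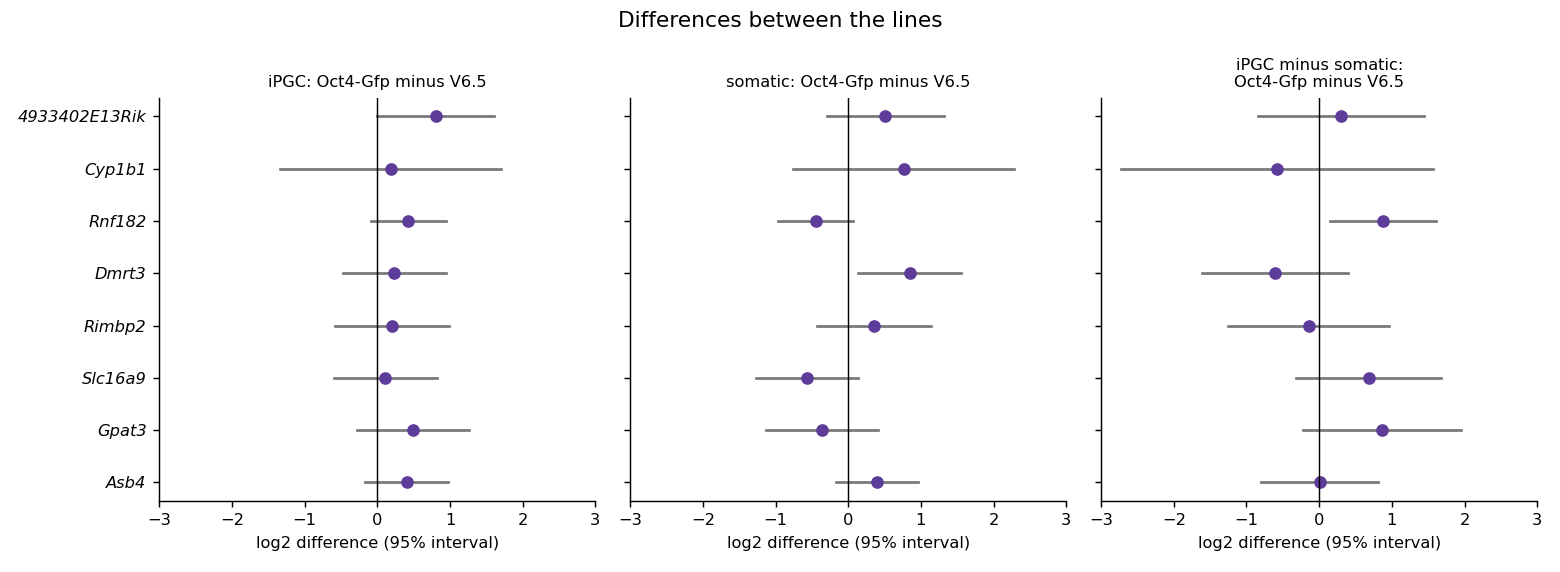
Log2 difference with its 95% interval for the 8 genes between Oct4-Gfp and V6.5 iPGCs (left), between Oct4-Gfp and V6.5 somatic cells (middle) and in the difference between lines of the contrast of iPGCs with somatic cells (right). After adjustment no gene passed the threshold in any panel, and the intervals of *Cyp1b1* are the widest.

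The start regions of 3 genes are shown as examples, 1 for each pattern: *Cyp1b1* for a restricted difference, *Slc16a9* for an intermediate one and *Asb4* for a gene highest in somatic cells. Motifs were searched on both strands in the 250 bases before each annotated start in RefSeq (GRCm38.p6): the AP-2 motif GCCNNNGGC, bound by a family that includes the germ cell regulator *Tfap2c*, the octamer ATGCAAAT, bound by Oct4, the core GCGTG of the site bound by the aryl hydrocarbon receptor with its partner ARNT, the E-box CACGTG and the TATA box TATAAA. All 8 genes had an entry. Capitals mark the matches in the sequences below, which are written 5′ to 3′ on the strand of the gene and end at the base before the start.
*Cyp1b1*, chr17:79715062-79715311, minus strand: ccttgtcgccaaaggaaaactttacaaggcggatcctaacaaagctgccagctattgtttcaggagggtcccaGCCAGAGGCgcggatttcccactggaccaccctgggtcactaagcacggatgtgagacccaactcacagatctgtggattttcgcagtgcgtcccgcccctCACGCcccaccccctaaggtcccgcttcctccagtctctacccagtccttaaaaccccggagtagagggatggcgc
*Slc16a9*, chr10:70245026-70245275, plus strand: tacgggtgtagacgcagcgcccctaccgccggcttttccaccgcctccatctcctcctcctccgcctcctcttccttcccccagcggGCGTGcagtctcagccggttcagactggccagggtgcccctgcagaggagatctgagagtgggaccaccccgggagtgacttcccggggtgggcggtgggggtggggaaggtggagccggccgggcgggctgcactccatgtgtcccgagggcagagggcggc
*Asb4*, chr6:5383136-5383385, plus strand: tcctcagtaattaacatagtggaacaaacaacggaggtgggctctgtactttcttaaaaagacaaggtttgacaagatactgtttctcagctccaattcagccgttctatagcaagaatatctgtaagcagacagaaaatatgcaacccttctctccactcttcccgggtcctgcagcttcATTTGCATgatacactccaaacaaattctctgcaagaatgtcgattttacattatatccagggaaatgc
*Cyp1b1* held 1 AP-2 match, 177 to 169 bases before its start, and 1 receptor core on the minus strand, 76 to 72 bases before it. *Slc16a9* held 1 receptor core, 163 to 159 bases before its start, and *Dmrt3* 1 as well. The first of the starts listed for *Asb4* had the octamer on the minus strand, 69 to 62 bases before it. Of the others, *Rimbp2* had 1 AP-2 match, the second start of *4933402E13Rik* had 1 TATA box, and *Rnf182* and *Gpat3* had no match to any of the 5. Among 32851 promoters of this length, 28.2% held the receptor core, 13.7% the AP-2 motif, 12.4% the TATA box, 6.02% the E-box and 1.60% the octamer. A match is a description of the letters only. By CpG count the windows of *Gpat3* (19) and *Slc16a9* (18) were the richest, against a median of 6 over all promoters.

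The partners and targets of the aryl hydrocarbon receptor, a ligand-activated transcription factor that drives *Cyp1b1* in many cells, were compared next. Over all probe sets, limma called 41.8% between iPGCs and ESCs (21.2% higher and 20.7% lower in iPGCs) and 58.4% between iPGCs and somatic cells (26.9% higher and 31.4% lower). Of 9 genes of this list on the arrays 6 were tested. Between iPGCs and ESCs, 2 were higher and 1 lower, with a list median of -0.01 against 0.02 over all probe sets. Between iPGCs and somatic cells 4 were higher and 2 lower, with a median of 1.04 against -0.03.
The receptor gene *Ahr* had signals of 577 and 582 on the Oct4-Gfp iPGC arrays, 525 and 361 on the V6.5 iPGC arrays, 68.7 and 68.6 on the Oct4-Gfp somatic arrays, 56.1 and 71.5 on the V6.5 somatic arrays, and 182 and 162 on the ESC arrays. Its iPGC arrays lay above all others and its somatic arrays below all others, as those of *4933402E13Rik* did. It was 1.47 above ESCs (SE 0.17, adjusted p = 0.000635 from limma) and 2.68 above somatic cells (SE 0.14, adjusted p = 2.04e-06).
*Cyp1a1*, which encodes a P450 of the same family and is a classical receptor target, was dimmer. It averaged 85.1 ± 15.8 (SD, n = 4) in iPGCs, 16.4 ± 10.1 (SD, n = 4) in somatic cells and 11.3 ± 10.1 (SD, n = 2) in ESCs, and exceeded background on 1 of 4 somatic and 1 of 2 ESC arrays. The log2 difference of iPGCs was 1.98 from ESCs (SE 0.28, adjusted p = 0.00149 from limma) and 1.73 from somatic cells (SE 0.23, adjusted p = 0.000327). The gene was bright enough to be tested only through its iPGC arrays, so its p-values lean on the arrays that let it in.
*Nqo1*, a quinone reductase that is also a target, was 2.77 above somatic cells in iPGCs (SE 0.15, adjusted p = 3.09e-06 from limma), at 831 ± 176 (SD, n = 4) against 114 ± 47.7 (SD, n = 4). It differed from ESCs by 0.15 (SE 0.19, adjusted p = 0.555). *Tiparp*, another target, was lower in iPGCs than in somatic cells, at 1042 ± 104 against 1878 ± 271 (SD, n = 4 each), and the targets therefore did not move together. *Arnt*, the partner of the receptor, differed by -0.46 between iPGCs and ESCs, but this call was lost in 6 of 16 alternatives (adjusted p up to 0.177). The calls of *Ahr*, *Cyp1a1* and *Nqo1* held in all 16.

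**Figure D4:**
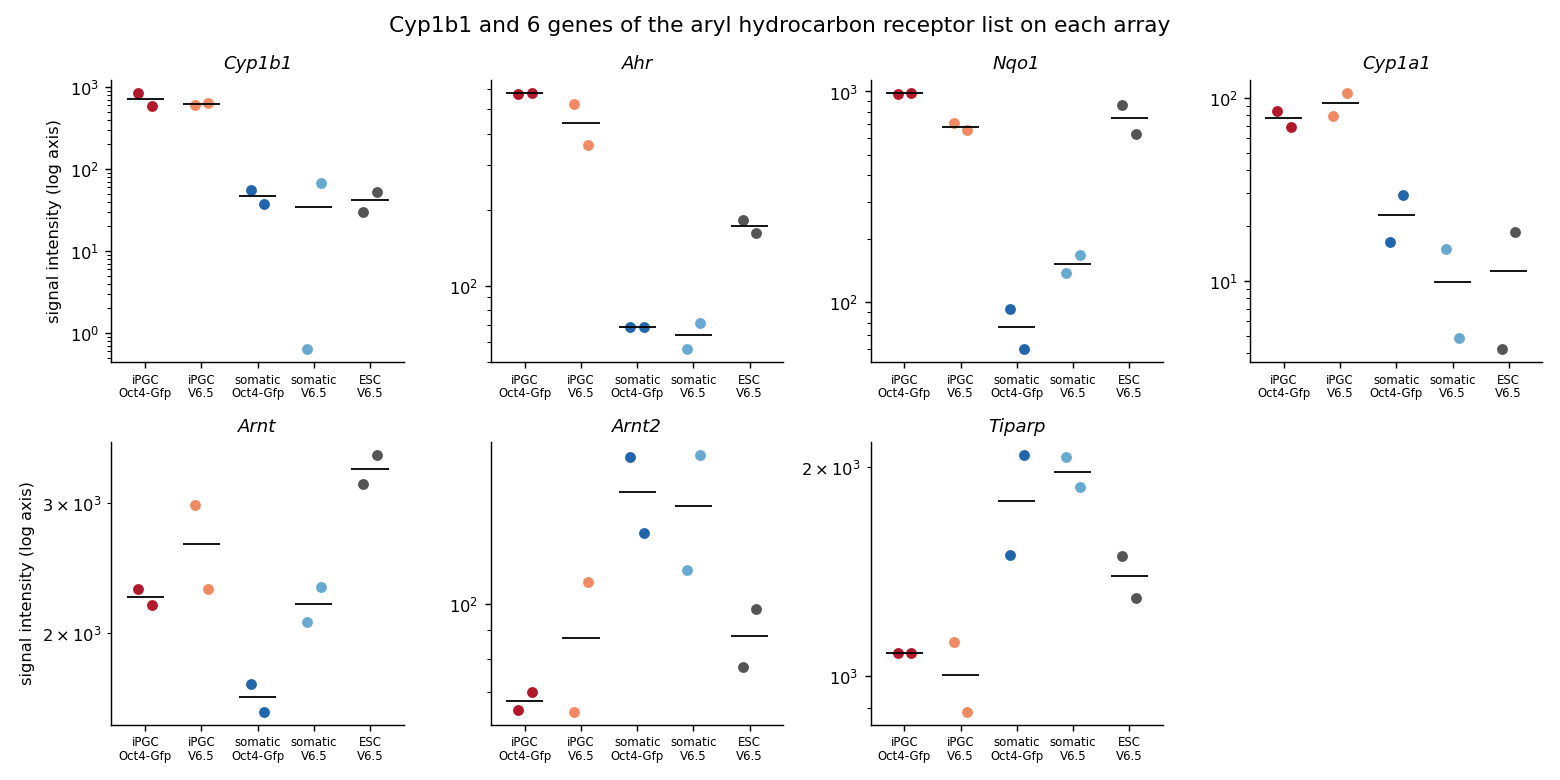
Signal intensity on a log axis of *Cyp1b1* and of the 6 tested genes of the aryl hydrocarbon receptor list on the 10 arrays, with a point per array and a bar per group mean (n = 2). *Ahr* and *Cyp1a1* stand highest on iPGC arrays like *Cyp1b1*, whereas *Arnt2* and *Tiparp* stand highest on somatic arrays.

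Genes of the presynaptic active zone and of vesicle release, the setting of *Rimbp2*, stood higher in iPGCs more often than lower when somatic cells were the comparison. Of 22 on the arrays 17 were tested, and 11 were higher and 0 lower than in somatic cells, beside 26.9% and 31.4% of all probe sets. The list median was 0.64 against -0.03 over all probe sets. With 1 choice of processing changed at a time, 8 to 13 were higher and 0 lower. Between iPGCs and ESCs 5 were higher and 3 lower, beside 21.2% and 20.7% of all probe sets, with a median of -0.09 against 0.02. Between somatic cells and ESCs 4 were higher and 10 lower, beside 33.6% and 29.7% of all probe sets, with a median of -0.94 against 0.06. By these medians, the list's difference from somatic cells lay in lower somatic levels rather than in iPGC levels above those of ESCs.
*Rims1*, whose protein primes vesicles and binds that of *Rimbp2*, had signals of 620.2 and 627 on the Oct4-Gfp iPGC arrays, 402 and 345 on the V6.5 iPGC arrays, 1.46 and 1.99 on the Oct4-Gfp somatic arrays, 0.753 and 10.3 on the V6.5 somatic arrays, and 63.9 and 72.6 on the ESC arrays. All somatic arrays lay within background, so iPGCs were at least 23.7-fold above them (adjusted p = 3.20e-07 from limma). The log2 difference from ESCs was 2.59 (SE 0.19, adjusted p = 0.000155 from limma).
*Cacna1d*, a voltage-gated calcium channel subunit, was 2.02 above ESCs (SE 0.23, adjusted p = 0.000663 from limma), and *Erc2*, an active zone scaffold, 1.44 above (SE 0.22, adjusted p = 0.00198). Neither would have been bright enough to be tested without its iPGC arrays, so these p-values lean on the arrays that let the genes in. The counts of the list include both genes and lean on those arrays in part. *Unc13b*, a priming factor, and *Ppfia3*, a liprin, were 2.35 and 1.63 above somatic cells in iPGCs, and their differences from ESCs, -0.09 and -0.58, did not pass. The calls named here held in all 16 alternatives. Among 9 neural markers the summed signal was 3013 to 3286 on iPGC arrays, 940 to 1185 on somatic arrays and 10628 to 10686 on ESC arrays. Of the 7 neural markers tested, limma called 7 higher and 0 lower against somatic cells, beside 26.9% and 31.4% of all probe sets, with a median of 0.85. They thus moved with the active zone list in that comparison, and their part in its result was not tested.

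**Figure D5:**
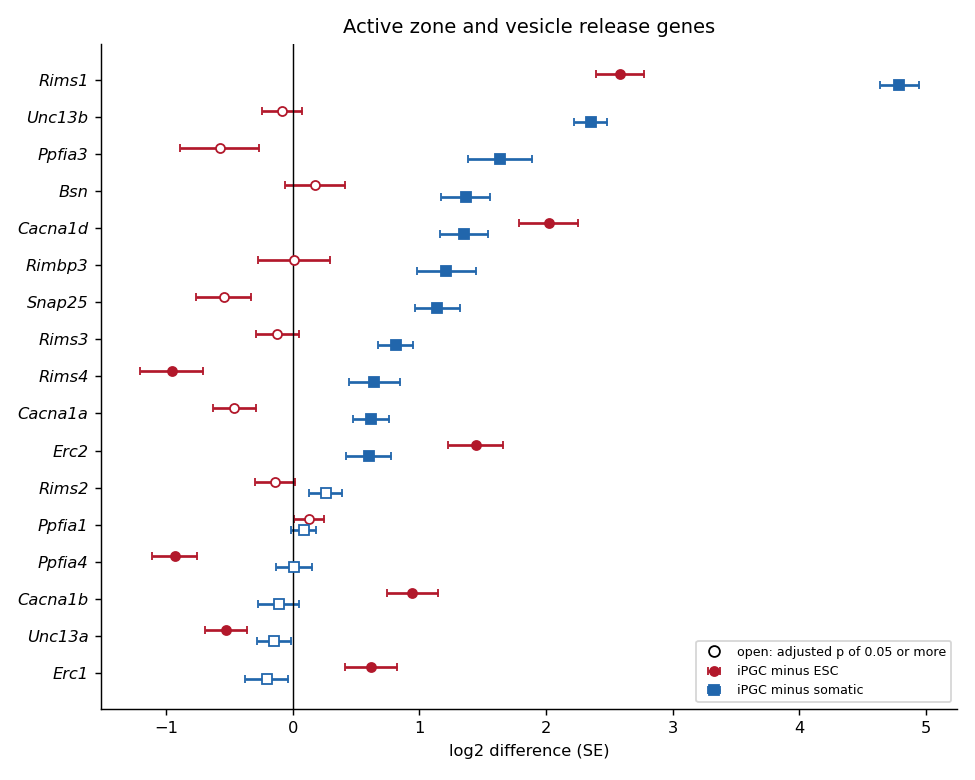
Log2 difference with SE of iPGCs from ESCs (red circles) and from somatic cells (blue squares) for the 17 tested active zone and vesicle release genes, sorted by the second. Filled symbols have an adjusted p under 0.05 from limma. *Rims1* has the largest value in both comparisons, and no filled blue symbol lies below 0.

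Of the DM domain family 4 of 7 genes other than *Dmrt3* were tested. Between iPGCs and ESCs 0 were higher and 2 lower, beside 21.2% and 20.7% of all probe sets. Between iPGCs and somatic cells 3 were higher and 1 lower, beside 26.9% and 31.4%. The medians were -0.61 and 0.89. *Dmrt1*, a regulator of the germ line and gonad, averaged 768 ± 188 (SD, n = 4) in iPGCs, 22.1 ± 11.7 (SD, n = 4) in somatic cells and 538 ± 31.4 (SD, n = 2) in ESCs. It was 4.45 above somatic cells (SE 0.18, adjusted p = 7.39e-07 from limma) and 0.47 from ESCs (SE 0.22, adjusted p = 0.118). *Dmrtb1* was lower in iPGCs than in ESCs (log2 difference -2.02), at 60.3 ± 18.5 (SD, n = 4) against 283 ± 8.02 (SD, n = 2). *Dmrtc2* was 0.93 above somatic cells. Its difference from ESCs was -0.70, a call lost without ESC replicate 2 (adjusted p = 0.151). *Dmrta2* was lower than in somatic cells, at 25.3 ± 11.5 against 83.7 ± 24.6 (SD, n = 4 each). *Dmrtb1* was bright enough to be tested only through its ESC arrays, and *Dmrta2* only through its V6.5 somatic arrays.

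Among 12 other monocarboxylate transporter genes 6 were tested, with 1 higher and 1 lower in each comparison and medians of -0.08 against ESCs and 0.09 against somatic cells. Of all probe sets, 21.2% were higher and 20.7% lower against ESCs, and 26.9% and 31.4% against somatic cells, so nothing is read from these counts. *Slc16a3*, the lactate exporter of glycolytic cells, was lower in iPGCs than in both, at 472 ± 162 (SD, n = 4), against 1357 ± 32.8 (SD, n = 4) in somatic cells and 1931 ± 44.2 (SD, n = 2) in ESCs (adjusted p = 5.27e-06 and 8.19e-05 from limma). *Slc16a1*, a lactate and pyruvate carrier, was 0.48 above ESCs, a call lost without either ESC array (adjusted p up to 0.100). *Slc16a6* was 0.61 above somatic cells (SE 0.13, adjusted p = 0.00387 from limma).

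Of 16 other enzymes of glycerolipid synthesis on the arrays 15 were tested. Between iPGCs and ESCs 3 were higher and 5 lower, beside 21.2% and 20.7% of all probe sets. Between iPGCs and somatic cells 5 were higher and 5 lower, beside 26.9% and 31.4%. The medians were -0.20 and -0.14, and nothing is read from these counts. *Mogat2*, an acyltransferase that works on monoacylglycerol, had a pattern between those of *Gpat3* and *Asb4*. It averaged 485 ± 58.4 (SD, n = 4) in iPGCs, 1347 ± 197 (SD, n = 4) in somatic cells and 58.3 ± 10.5 (SD, n = 2) in ESCs, and was 2.77 above ESCs (SE 0.18, adjusted p = 0.000125 from limma). The phosphatidate phosphatase gene *Lpin2* and the acyltransferase gene *Lclat1* were 1.48 and 1.14 above ESCs. *Gpat2*, of the same enzyme family as *Gpat3* and known for its expression in germ cells, averaged 164 ± 41.4 (SD, n = 4) in iPGCs, 35.5 ± 11.4 (SD, n = 4) in somatic cells and 184 ± 46.5 (SD, n = 2) in ESCs. It was 1.83 above somatic cells (SE 0.14, adjusted p = 1.34e-05 from limma), where *Gpat3* differed by 0.50 (SE 0.24). *Lpin3* was 1.15 above somatic cells as well.

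Of 17 other ankyrin repeat and SOCS box genes 7 were tested. Between iPGCs and ESCs 3 were higher and 0 lower, beside 21.2% and 20.7% of all probe sets. Between iPGCs and somatic cells 1 was higher and 2 lower, beside 26.9% and 31.4%. The medians were 0.55 and -0.26. Between somatic cells and ESCs, where limma called 63.3% of all probe sets and 33.6% as higher, 6 of the 7 were higher, and 4 without ESC replicate 1. *Asb12* resembled *Asb4* in being highest in somatic cells, at 290.2 ± 75.0 (SD, n = 4), but lay within background on all iPGC and ESC arrays. It was at least 15.8-fold above iPGCs and at least 18.5-fold above ESCs in somatic cells, and was bright enough to be tested only through its somatic arrays. *Asb13* averaged 542 ± 30.6 (SD, n = 4) in iPGCs, 534 ± 50.2 (SD, n = 4) in somatic cells and 169 ± 36.5 (SD, n = 2) in ESCs. *Asb8* was 1.16 above ESCs and 0.85 above somatic cells. *Asb1* was 0.56 above ESCs and lost its call without either ESC array (adjusted p up to 0.119), and *Asb3* differed by -0.54 from somatic cells (SE 0.14, adjusted p = 0.0107 from limma), a call lost under quantile normalization and median centring. The 3 membrane RING finger genes set beside *Rnf182* (*Rnf152*, *Rnf183* and *Rnf186*) were too dim to be tested.

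The genes whose log2 signals followed each of the 8 most closely over the 10 arrays were named by Pearson's r. The arrays share 5 groups, so r mostly measures likeness of the 5 group levels, and it is given as a description. *Rnf182* was followed by *Mbp* (r = 0.996), which encodes myelin basic protein, by *Tox* (0.987) and by *Pbk* (0.987). *Mbp* averaged 580.8 ± 20.2 in Oct4-Gfp iPGCs, 507 ± 72.2 in V6.5 iPGCs, 88.9 ± 6.78 in Oct4-Gfp somatic cells, 112 ± 13.1 in V6.5 somatic cells and 74.4 ± 8.79 in ESCs (SD, n = 2 each). *4933402E13Rik* was followed by *AU015836* (0.992), by *Pik3cb* (0.992), a catalytic subunit of phosphoinositide 3-kinase, and by *Mobp* (0.991), which encodes a second myelin-associated protein. *Cyp1b1* was followed by *Trmt61a*, *Zfp3* and *Slc25a40* (0.973 to 0.979), and *Rimbp2* by *Sdad1*, *Mgat5* and *Oxsr1* (0.981 to 0.985). *Dmrt3* had the fewest close followers, with 4 genes above 0.95, led by *Madd* (0.972), *Oxsr1* (0.963) and *Akna* (0.952). *Slc16a9* was followed by *Thsd4*, *Ccdc184* and *Aif1l* (0.970 to 0.977), and *Gpat3* by *Tmem248*, *Dido1* and *Dusp4* (0.981 to 0.988). *Asb4* had the most, with 420 genes above 0.95, led by *Tmem127* (0.999), *Ankrd50* (0.997) and *Tmem164* (0.997), all highest in somatic cells. Between the genes themselves, r was 0.958 for *4933402E13Rik* and *Rnf182* and -0.30 for *4933402E13Rik* and *Asb4*, the extremes of the order from restricted to somatic.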

How the data were processed

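RNA was amplified and labelled with biotin according to the labels. The table deposited by the authors holds signal intensity, not on a log scale. The submitters' processing notes name MAS5, without a version, as the tool. The methods of the paper name D-Chip model-based expression instead, and those values were not used here. Signals ranged from 0.0142 to 30783, and without the highest and lowest 2% each array had a mean of 500.

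From the table, 64 control probe sets were left out, and log2(signal + 14.8) was used, the offset being the 25th percentile of all signals. A probe set was tested where it exceeded the array's median signal on 2 or more arrays, which left 26368 of 45101. A model with 5 group means was fitted to all arrays by limma 3.58.1 (R 4.3.3), which had 5 residual degrees of freedom and a prior of 2.92. Benjamini-Hochberg adjustment ran over all tested probe sets, with 0.05 as the threshold. Symbols were taken from the platform's annotation: 34958 have 1 symbol, 932 several and 9211 none. Where a gene had several, the brightest on average stands for it (6019 of 12207 genes had more than 1). Background came from 44 olfactory receptor probe sets.

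The 8 genes, the lists and the markers were chosen with earlier results of these data known. Named beside them are, by rule, the 3 genes with the highest r to each, and of each family list up to 3 called genes with the largest difference of iPGCs from ESCs and from somatic cells. *Slc40a1*, *Msx2*, *Amot*, *Tiparp*, *Arnt2*, *Hand1*, *Meox1*, *Hbb-bh1*, *Kdr*, *Esam* and the dim RING finger genes were named after their values were seen. So were *Tbx20*, *Msx1* and *Foxf1*. Alternatives were a floor at the offset, a doubled offset, no filter, quantile normalization, median centring, the replicate number as a block, the mean of a gene's probe sets and each array left out in turn. The model was also run on simulated data with independent normal noise, whose outcome is not reported here and is not used as support. The number of arrays limits the precision. Plots were drawn with matplotlib 3.10.9.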

Additional observations from a re-analysis of the deposited data

How the results depend on the processing

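For the 8 genes, 0 of 408 values under the alternatives passed in the comparisons of lines, with a smallest adjusted p of 0.0701 (*Asb4* between the iPGC lines, without iPGC V6.5 replicate 1). Of 408 values of the differences among cell types 32 moved by more than the spread between replicates (1 SD) and 3 took another sign, all of *Cyp1b1* between somatic cells and ESCs. Many of the 408 could not move. Removing the filter or adding the replicate block leaves such a difference unchanged, as does leaving out an array outside the comparison. The count of 32 therefore understates the dependence on the processing. Over all probe sets, calls between the somatic lines were 22, and became 35 with the offset doubled, 2 with no filter, 5 with the replicate number as a block and 0 to 16 on leaving out 1 array. Calls in the difference between lines were 4, and became 10 with a floor at the offset, 0 with no filter, 0 with quantile normalization, 0 with the replicate block and 0 to 3 on leaving out 1 array. Calls between iPGCs and ESCs were 11032, and lay between 5343 (without ESC replicate 2) and 11074 on leaving out 1 array, with 6791 without ESC replicate 1. Arrays of the same replicate number correlated between -0.29 and 0.26 in their deviations from the group means, so no pairing common to all populations was seen. The labels do not say which samples shared a culture or sort, and these correlations cannot exclude a pairing of single populations. The main model takes all arrays as independent. A population left with 1 array was assumed to vary like the others. Median centring moved the median of all probe sets between iPGCs and somatic cells from -0.03 to 0.15 and that between the iPGC lines from -0.10 to 0.06, so differences of that size have no settled direction.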
